A study of Mus musculus with 16 samples.

Results

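The genes described here are 10 regulators of apoptosis, measured by RNA-seq in mouse brain microvascular endothelial cells (mBMEC). They were chosen by name, as members of the BCL2 family (Bcl2l11, Bbc3, Pmaip1, Bax, Bak1, Bcl2, Bcl2l1 and Mcl1) or as death receptors (Fas and Tnfrsf10b), and they are 10 of the 54193 genes over which counts were summed. The cells came from Cdh5(PAC)-CreERT2/Pdcd10 fl/fl mice aged 8 to 10 weeks, in which the endothelial Cdh5 promoter drives an inducible Cre. KO cells had received 4-OH-tamoxifen (4-OHT) in culture to delete Ccm3 (Pdcd10), a gene whose loss causes cerebral cavernous malformations, and WT cells carried the same alleles without 4-OHT, so the genotype and exposure to 4-OHT cannot be told apart. The 16 libraries were 3 untreated WT, 2 WT with propranolol (WT+P), 2 WT with rapamycin (WT+R), 3 untreated KO, 3 KO+P and 3 KO+R, with propranolol at 10 µM and rapamycin at 100 nM for 24 h. The labels call the replicates biological, the cells were grown from pooled brains of several mice, and a library held between 18830503 and 26203339 counts. Libraries of different groups with the same replicate number are called a culture here, although the labels do not say that they were one.

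Apoptosis through mitochondria is set by the balance within the BCL2 family. BH3-only proteins such as BIM (Bcl2l11), PUMA (Bbc3) and NOXA (Pmaip1) bind the survival proteins BCL2, BCL-XL (Bcl2l1) and MCL1, and some also activate BAX and BAK, which open the outer mitochondrial membrane. Death receptors such as FAS and the TRAIL receptor (Tnfrsf10b) start the same end from the cell surface by activating caspase-8. In endothelial cells these genes are known for vessel regression, where BIM removes cells that lose survival signals, and BIM and PUMA are known targets of FOXO factors and p53, respectively. Propranolol blocks beta-adrenergic receptors and rapamycin inhibits mTORC1, and the comparisons ask whether loss of Ccm3 or either drug changed the transcripts of this machinery.

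The BH3 motif is the stretch by which the family members bind each other, and it is shown here because it is the feature that most of the genes share. Each line gives 42 bases of coding sequence in GRCm39 from the most abundant transcript of the gene, 5′ to 3′ on its coding strand, with the 6 codons of the pattern leucine, any 3 residues, glycine or alanine, and aspartate in capitals.
Bcl2l11, chr2:127989058-127989099, plus strand: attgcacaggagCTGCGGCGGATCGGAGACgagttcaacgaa
Bbc3, chr7:16047686-16047727, plus strand: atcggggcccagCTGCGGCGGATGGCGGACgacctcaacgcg
Bax, chr7:45115418-45115459, minus strand: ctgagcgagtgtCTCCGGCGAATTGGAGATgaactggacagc
Bak1, chr17:27241502-27241543, minus strand: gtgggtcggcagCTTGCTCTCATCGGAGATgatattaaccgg
Bcl2, chr1:106640302-106640343, minus strand: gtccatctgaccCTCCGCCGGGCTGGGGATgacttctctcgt
Bcl2l1, chr2:152671614-152671655, minus strand: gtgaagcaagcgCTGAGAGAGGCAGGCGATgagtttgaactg
Mcl1, chr3:95566735-95566776, plus strand: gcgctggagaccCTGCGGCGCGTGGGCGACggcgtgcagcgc
Each of these genes held the pattern once, within 1 exon. Bcl2l11 and Bbc3 shared 4 of the 6 codons, the survival gene Mcl1 shared 3 with each of them, and every other pair shared at most 2. The pattern alone is not specific, since 23.9% of 21770 mouse proteins held it.

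In GRCm39 the genes span chr2:127967958-128004476 (Bcl2l11), chr7:16042318-16052130 (Bbc3), chr7:45111015-45116325 (Bax), chr17:27238784-27247983 (Bak1), chr1:106465908-106642060 (Bcl2), chr2:152622582-152673655 (Bcl2l1), chr3:95566026-95570487 (Mcl1), chr19:34268001-34305173 (Fas) and chr14:70004916-70021860 (Tnfrsf10b). Sequence of Pmaip1 is not shown.

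The targeted gene was read first. In WT cells Pdcd10 stood at 11.5, 31.2 and 47.0 normalised counts-per-million (CPM) in replicates 1, 2 and 3. Across the 9 libraries labelled KO it lay between 7.83 and 16.7 CPM, and in the drug-treated WT libraries between 27.7 and 60.8 CPM. By this measure the library labelled WT replicate 1 was as low as KO cells, against its label, and every comparison with WT cells was also computed without it. The log2 fold change of Pdcd10 in KO vs WT cells was −1.56 ± 0.40 (SE), with an adjusted p of 0.420 in edgeR's quasi-likelihood test with Benjamini-Hochberg adjustment, and −1.68 and −2.21 with propranolol and with rapamycin in both genotypes. Counts were summed over the whole gene, so transcript left after the deletion is included.

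The endothelial markers were high in all libraries. Summed over 10 genes they stood apart in WT+P replicate 1, at 4246 TPM, and KO+P replicate 1, at 4577 TPM, the other 14 libraries having 6060 to 9589 TPM. Single markers were abundant, with Cdh5 between 2452 and 5186 CPM and Pecam1 between 1363 and 3566 CPM. Of the markers of other brain cells some were at or near 0, with at most 4 counts of Gfap, 2 of Aqp4, 3 of Cx3cr1, 2 of Mog, 2 of Syt1 and 0 of Lum in any library. The 8 mural markers summed to between 21.3 and 515 transcripts-per-million (TPM), almost all of it Acta2, with 439.6 and 515 TPM in WT+R cells and 29.0, 149 and 60.9 TPM in WT cells. In KO cells the mural sum was 21.3, 35.1 and 43.0 TPM and with rapamycin 115, 51.0 and 78.1 TPM in replicates 1, 2 and 3, so it was higher with rapamycin in every culture of both genotypes. Acta2 was called higher in WT+R vs WT cells (log2 fold change 2.74, edgeR adjusted p = 0.0469), and of the 6 mural markers tested it was the 1 called. The 10 endothelial markers had a median log2 fold change of −0.35 in WT+R vs WT cells, 3 of them at an unadjusted p under 0.05, and of −0.03 in KO+R vs KO cells. With the replicate block the endothelial marker Emcn was called higher in WT+R vs WT cells (log2 fold change 0.85, edgeR adjusted p = 0.0176) and the macrophage marker Csf1r, with 12, 5 and 8 counts in KO and 0, 1 and 0 in KO+R cells, was called lower in KO+R vs KO cells. Others were detected, among them Cnp (458 to 1483 counts), Tubb3 (37 to 684), Aldh1l1 (21 to 174) and Col1a1 (15 to 2540). Summed markers of astrocytes reached at most 4.95 TPM and those of microglia and macrophages 2.22 TPM. Oligodendrocyte markers summed to 17.0 to 40.2 TPM, most of it Cnp, and neuron markers to 1.47 to 24.5 TPM, most of it Tubb3, with the highest neuron sums, 24.5 and 19.9 TPM, in KO+P replicate 1 and WT+P replicate 1. Of the other mural markers Pdgfrb had 30 to 148 counts, Cspg4 10 to 128, Notch3 7 to 110, Des at most 59, Rgs5 1 to 38, Abcc9 at most 12 and Kcnj8 at most 5. The 6 fibroblast markers summed to between 2.03 and 60.1 TPM and were lowest, within each group, in the library with replicate number 1. The part of these differences in the results below was not tested, and in such bulk RNA fewer cells of a type and less RNA per cell cannot be told apart.

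Compared per length, transcripts of the executioner Bax were the most abundant of the 10 genes, with a median of 736 TPM over the 16 libraries and a range of 516 to 919 TPM. Next came the survival genes Bcl2l1, with a median of 211 TPM, and Mcl1, with 192 TPM, whose ranges of 150 to 278 and 150 to 229 TPM overlapped. Bak1, which encodes the other pore-forming protein, had a median of 90.5 TPM, Tnfrsf10b 74.3 TPM and Bbc3 62.5 TPM, and their ranges of 69.2 to 113, 48.5 to 106 and 34.2 to 100.4 TPM also overlapped. Pmaip1 followed with 27.9 TPM and the widest range of the middle group, 6.79 to 103 TPM. Bcl2l11 had a median of 11.7 TPM and Bcl2, the founding survival gene of the family, only 5.37 TPM. Fas was lowest at 2.00 TPM, with 3 to 112 counts per library, so that its values carried much counting error. The most abundant transcript carried over 90% of the counts of Bcl2l11, Bbc3, Pmaip1, Bcl2, Mcl1 and Tnfrsf10b in every library, but between 43.3 and 75.2% for Bcl2l1 and between 46.0 and 91.1% for Bak1. The libraries carry no strand, and 25.5% of the exonic bases of Bak1, 13.6% of Bax, 9.27% of Bcl2l1, 6.06% of Bcl2 and 1.93% of Bcl2l11 overlap another annotated gene. That overlap adds uncertainty to these 5 levels.

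**Figure D1:**
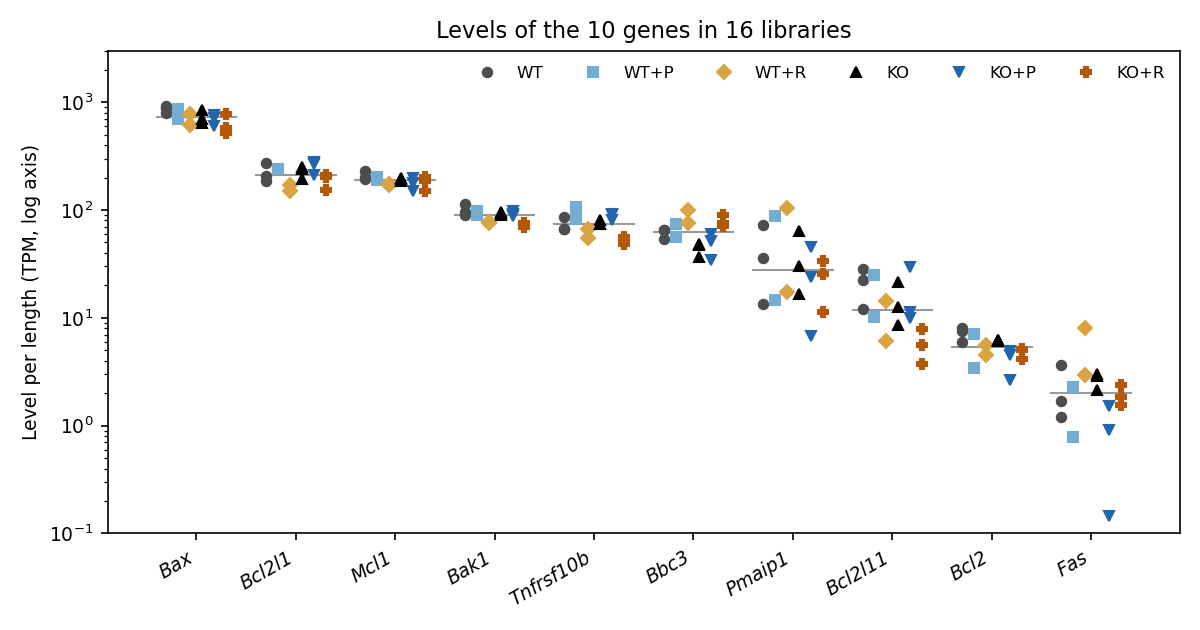
Level per length (TPM, log axis) of each of the 10 genes in each of the 16 libraries, with symbols for the 6 groups and a grey line at the median over all libraries. Bax lies above all other genes in every library, and Pmaip1 and Bcl2l11 spread over the widest ranges of the genes other than Fas.

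Across the 6 groups, Bbc3 had the smallest p of the 10 genes without the replicate block and Bcl2l11 with it. Tested for any difference among the groups with edgeR's quasi-likelihood test, Bbc3 had an adjusted p of 0.0480, followed by Tnfrsf10b at 0.0536 and Bcl2l1 at 0.106. Thus 1 of the 10 genes passed the threshold of 0.05, where 7.68% of the 14838 genes tested did. That call was lost in 13 of 16 fits that left out 1 library, among them the one without WT replicate 1, and with an effective length offset. Libraries with the same replicate number deviated together from their group means, and with the number as a block in the model 5 genes passed, namely Bcl2l11 (adjusted p = 0.000373), Bbc3 (0.000967), Tnfrsf10b (0.00197), Bcl2l1 (0.0310) and Pmaip1 (0.0386), where 23.2% of all genes did. Without WT replicate 1 the block gave 3, since Bcl2l1 and Pmaip1 no longer passed. Bax, Bak1, Bcl2, Mcl1 and Fas passed in neither model. Mean levels of Bcl2l1 were 303 ± 40.4 CPM (SD, n = 3) in WT, 329 ± 0.168 (SD, n = 2) in WT+P, 240 ± 22.3 (SD, n = 2) in WT+R, 324 ± 31.5 (SD, n = 3) in KO, 365 ± 27.7 (SD, n = 3) in KO+P and 286 ± 22.5 (SD, n = 3) in KO+R cells, so that each genotype was lowest with rapamycin and highest with propranolol.

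With rapamycin the BH3-only genes Bcl2l11 (BIM) and Bbc3 (PUMA) changed in opposite directions. The call of Bcl2l11 rested on the replicate block. Bbc3 was called without the block in KO cells by DESeq2, beside 3.19% of all genes, but not by edgeR's main model. In untreated KO cells Bcl2l11 stood at 70.8, 23.6 and 37.3 CPM in replicates 1, 2 and 3, and in KO+R cells at 29.4, 10.8 and 16.0 CPM. The groups overlapped, but the level was lower with rapamycin in each of the 3 cultures, by similar log2 differences of −1.27, −1.12 and −1.22. The mean was 43.9 ± 24.3 CPM (SD, n = 3) in KO and 18.7 ± 9.57 CPM (SD, n = 3) in KO+R cells. Without the block the log2 fold change of −1.23 ± 0.61 (SE) did not pass edgeR's test (adjusted p = 0.446). With the replicate block it was −1.21 ± 0.15 (SE) with an adjusted p of 0.00129, a 2.31-fold fall.

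The same difference was seen in WT cells, although with 2 treated cultures. Bcl2l11 stood at 88.9, 35.4 and 60.9 CPM in WT replicates 1, 2 and 3 and at 46.4 and 18.4 CPM in WT+R replicates 1 and 2. Within the cultures numbered 1 and 2 the log2 differences were both −0.94. The log2 fold change was −0.93 ± 0.69 (SE) without the block (edgeR, adjusted p = 0.673) and −1.05 ± 0.17 (SE) with it (adjusted p = 0.00592). Without the library labelled WT replicate 1 the blocked value was −1.17, with an adjusted p of 0.0124. The change did not differ detectably between genotypes, with an interaction of −0.16 ± 0.22 (SE) under the block (adjusted p = 1.00).

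Bbc3 was higher with rapamycin. Its transcripts stood at 41.7, 30.4 and 40.4 CPM in KO and at 90.9, 55.9 and 63.9 CPM in KO+R replicates 1, 2 and 3. The groups did not overlap, and the mean of 70.2 ± 18.3 CPM (SD, n = 3) in KO+R compared with 37.5 ± 6.21 CPM (SD, n = 3) in KO cells. The log2 fold change of 0.91 ± 0.22 (SE), or 1.87-fold, missed the threshold in edgeR without the block (adjusted p = 0.0644) and passed with it (0.90 ± 0.12 SE, adjusted p = 0.00156). In WT cells Bbc3 stood at 54.7, 44.4 and 52.2 CPM, and in WT+R cells at 87.2 and 66.7 CPM, again without overlap. Its log2 fold change there was 0.61 ± 0.24 (SE) without the block (adjusted p = 0.290) and 0.64 ± 0.13 (SE) with it (adjusted p = 0.0163). Without the library labelled WT replicate 1 the blocked value was 0.59 and no longer passed (adjusted p = 0.0704).

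**Figure D2:**
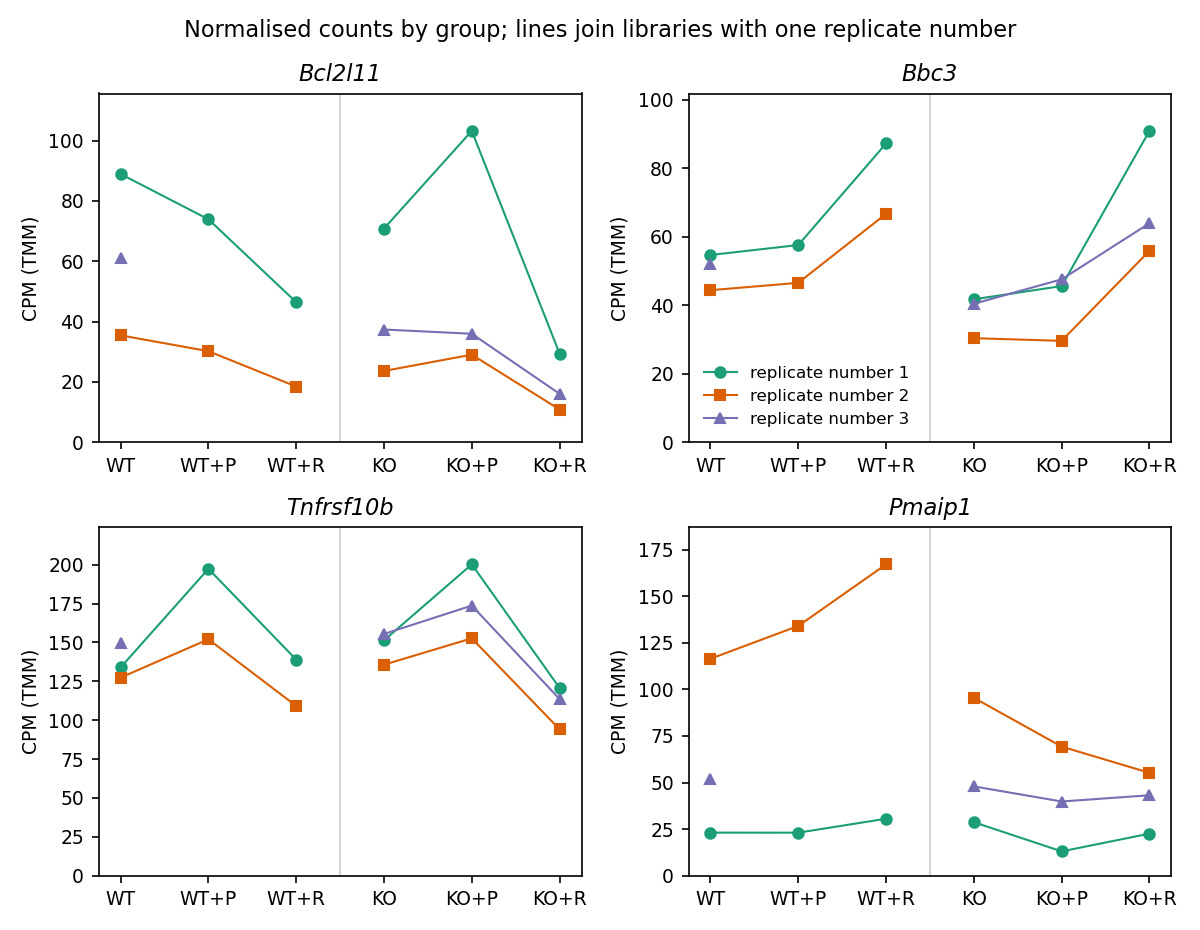
Normalised counts (CPM) of 4 of the genes by group, 1 point per library, with lines joining libraries that carry the same replicate number within a genotype (no WT+P or WT+R library has number 3). On every line Bcl2l11 is lower and Bbc3 higher with rapamycin than untreated, while the lines themselves lie apart, most of all for Bcl2l11 and Pmaip1.

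The receptor gene Tnfrsf10b was lower with rapamycin in KO cells. It stood at 151, 136 and 155 CPM in KO and at 121, 94.1 and 114 CPM in KO+R replicates 1, 2 and 3, without overlap. The log2 fold change was −0.43 ± 0.15 (SE) in edgeR without the block (adjusted p = 0.211). With the block it was −0.44 with an adjusted p of 0.0121, a 1.35-fold difference that stayed below the 1.5-fold required of a call. In WT cells the change was −0.14 ± 0.16 (SE), with 134, 127 and 149 CPM in WT against 139 and 109 CPM in WT+R cells, and those groups overlapped.

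None of the other genes was called with rapamycin. Bak1 was lower in each of the 3 KO cultures and both WT cultures, with a log2 fold change of −0.28 in either genotype (unadjusted p of 0.0148 and 0.0272, adjusted p of 0.237 and 0.298, edgeR). Among the survival genes, Bcl2l1 gave −0.18 in KO and −0.34 in WT cells, Bcl2 −0.24 and −0.40, and Mcl1 0.04 and −0.17, none of which passed with or without the block. For Bax the 95% interval of the log2 fold change in KO cells with the block, −0.35 to 0.10, and for Mcl1 that of −0.17 to 0.24, left out a change of 1.5-fold in either direction. Pmaip1 was lower with rapamycin in 3 of 3 KO cultures and higher in 2 of 2 WT cultures, with log2 fold changes of −0.51 and 0.63 that did not pass. Fas had −0.27 in KO and 1.29 in WT cells, and 1.49 in WT cells with the block (edgeR adjusted p = 0.216). The WT value rested on WT+R replicate 1, with 112 counts, where replicate 2 had 56 and the untreated WT libraries 27, 65 and 21.

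In counts, edgeR without the block called none of the 10 genes in KO+R vs KO cells, where 1.51% of all genes were called, and none in WT+R vs WT cells, where 1.4% were. At an unadjusted p under 0.05 without the block there were 3 in KO cells (Bbc3, Bak1 and Tnfrsf10b) and 3 in WT cells (Bbc3, Bak1 and Bcl2l1), beside 12.5% and 12.6% of all genes, and DESeq2 called Bbc3 in KO cells and none in WT cells, beside 3.19% and 3.65% of all genes. With the replicate block Bcl2l11 and Bbc3 were called in both, 2 of 10 genes against 4.98% of all genes in KO and 4.56% in WT cells. Groups did not overlap for 4 of the 10 genes in KO cells (1 higher, 3 lower), where 24.1% of all genes did not, and for 5 in WT cells (1 higher, 4 lower), where 28.6% did not. The median log2 fold change over the 10 genes was −0.25 in KO and −0.19 in WT cells, beside −0.02 and −0.01 over all genes. The KO and WT comparisons share no libraries. They were fitted in the same model, with a shared estimate of the spread and, under the block, shared terms for the replicate number. They are thus not independent tests.

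**Figure D3:**
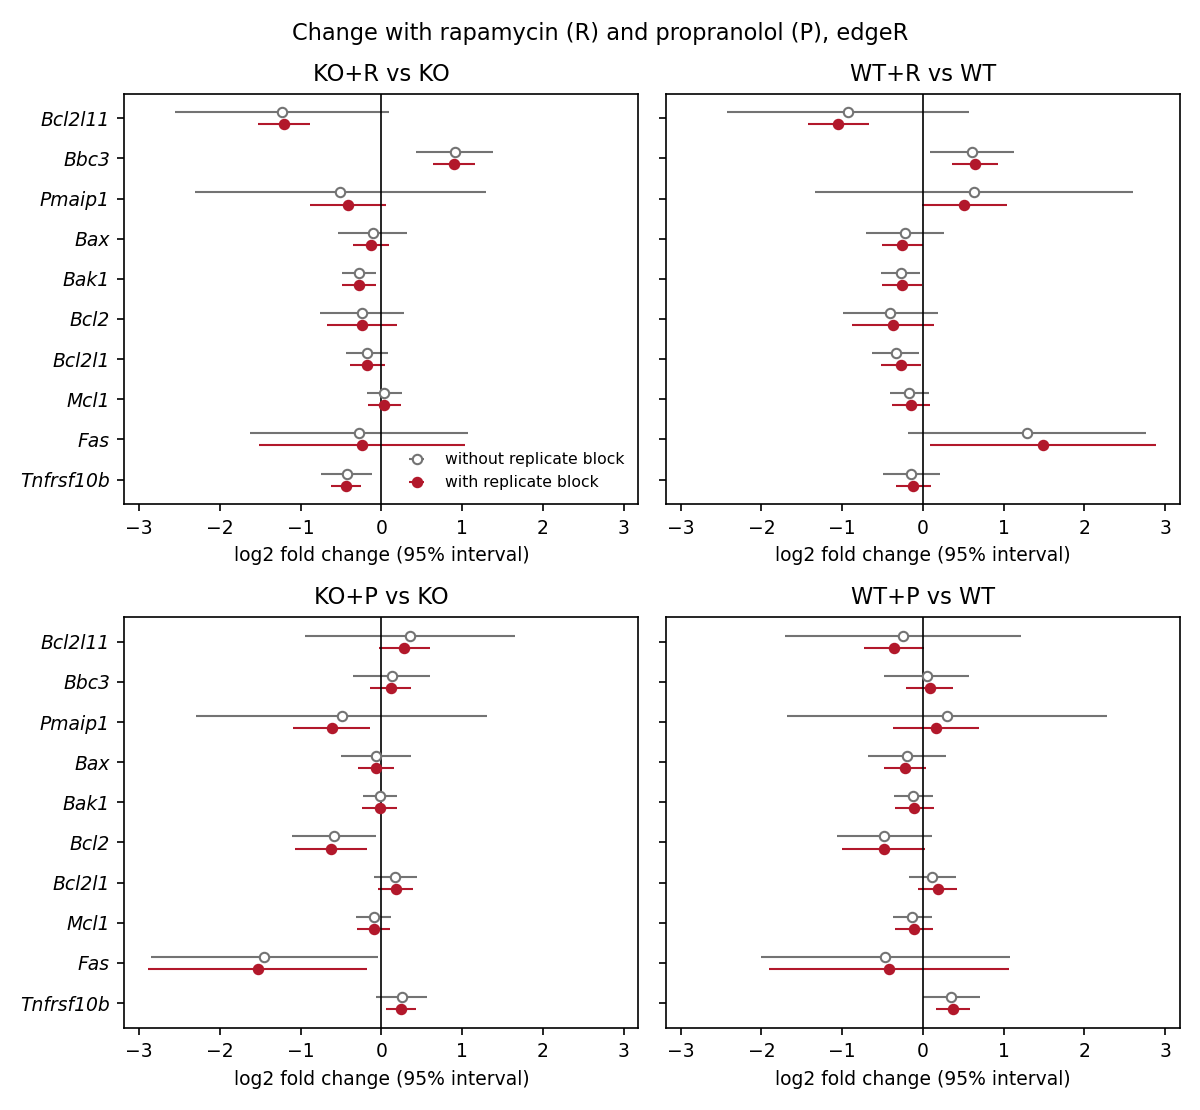
Log2 fold change with rapamycin (upper panels) and propranolol (lower panels) in KO and WT cells for each of the 10 genes, with 95% intervals from edgeR, without (open grey) and with (filled red) the replicate number as a block. The intervals of Bcl2l11 and Pmaip1 shrink most with the block, and with it those of Bcl2l11 exclude 0 for rapamycin in both genotypes, as those of Bbc3 do in either model.

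Between untreated KO and WT cells none of the 10 genes was called. Bbc3 was lower in KO cells, at 41.7, 30.4 and 40.4 CPM against 54.7, 44.4 and 52.2 CPM in WT cells, without overlap and lower in 3 of 3 cultures. Its log2 fold change of −0.43 ± 0.22 (SE) did not pass in edgeR (adjusted p = 0.896, and 0.117 with the block). Bcl2l11 was lower in 3 of 3 cultures too, by log2 differences of −0.33, −0.58 and −0.70, and likewise did not pass (adjusted p = 0.996, and 0.117 with the block). DESeq2 with the block gave adjusted p of 0.0298 for Bbc3 and 0.0295 for Bcl2l11, which were not called because their fold changes stayed below 1.5. For Bax, the gene that executes the response, 394, 324 and 340 CPM in WT compared with 358, 263 and 297 CPM in KO cells, and the log2 fold change was −0.20 ± 0.20 (SE). The death receptor gene Tnfrsf10b had a log2 fold change of 0.11 ± 0.15 (SE), and the survival genes Bcl2l1 and Mcl1 had 0.10 ± 0.12 (SE) and −0.09 ± 0.10 (SE).

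In KO vs WT cells edgeR called 0 of 10 genes without or with the block, where it called 0.00674% and 0.182% of all genes. DESeq2 called none without or with the block, where it called 0.431% and 2.67% of all genes. In edgeR no unadjusted p was under 0.05 without the block, beside 6.07% of all genes. With it those of Bcl2l11 and Bbc3 were, beside 13.8% of all genes. Leaving out the library labelled WT replicate 1 made no call, where 0.445% of all genes were called with the block. Under the block the log2 fold changes were then −0.66 for Bcl2l11 (edgeR adjusted p = 0.0890), which is past 1.5-fold, and −0.49 for Bbc3 (adjusted p = 0.124). Without the block the same omission gave −0.14 for Bcl2l11, against −0.49 with all libraries. Bbc3 was the 1 gene of the 10 without overlap, where 13.2% of all genes had none. With the drugs present, edgeR called 0 of 10 genes in KO+P vs WT+P and 0 in KO+R vs WT+R cells, beside 0% of all genes in each, and 0.0876% and 0.0944% with the block. Without the block no unadjusted p of edgeR was under 0.05, beside 6.19% and 5.72% of all genes. DESeq2 called none, where it called 0.398% and 0.519% of all genes. With the block Bbc3 (log2 fold change −0.41) and Pmaip1 (−0.80) were under it in KO+P vs WT+P cells, with edgeR adjusted p of 0.216 and 0.197, beside 13.8% of all genes under it. In KO+R vs WT+R cells Bcl2l11 (−0.70) and Pmaip1 (−0.95) were under it, with edgeR adjusted p of 0.127 and 0.151, beside 10.7% of all genes, and DESeq2 with the block called these 2, where it called 2.05% of all genes. Bcl2l1 did not overlap in KO+P vs WT+P cells (16.6% of all genes did not), nor did Bcl2l1, Mcl1 and Fas in KO+R vs WT+R cells (19.2%).

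With propranolol the survival gene Bcl2 and the receptor gene Fas had lower and the receptor gene Tnfrsf10b higher values, none of which edgeR called in either model. Bcl2 stood at 28.4, 26.7 and 26.7 CPM in KO and at 12.5, 21.3 and 20.5 CPM in KO+P replicates 1, 2 and 3, without overlap. Its log2 fold change of −0.59 ± 0.24 (SE), or 1.51-fold, had an unadjusted p of 0.0298 and an adjusted p of 0.359 in edgeR (0.113 with the block). In WT cells it stood at 27.5, 32.9 and 31.9 CPM, and at 14.0 and 30.2 CPM with propranolol, where replicate 1 was low and replicate 2 was not. The libraries with propranolol and replicate number 1 were low in both genotypes, and they are the same 2 libraries that had the lowest endothelial marker sums. The part of that in the Bcl2 values was not tested.

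Fas went from 1.39, 2.13 and 2.26 CPM in KO to 0.125, 0.709 and 1.29 CPM in KO+P cells, the lowest of these values being 3 counts (log2 fold change −1.45 ± 0.65 SE, adjusted p = 0.385). Tnfrsf10b was higher in 3 of 3 KO and 2 of 2 WT cultures with propranolol, at 200, 153 and 174 CPM in KO+P and 197 and 152 CPM in WT+P cells. Those log2 fold changes were 0.25 ± 0.15 (SE) and 0.35 ± 0.16 (SE), with edgeR adjusted p of 0.479 and 0.504 (0.126 and 0.279 with the block). Bcl2l11 reached the highest value of any library, 103 CPM, in KO+P replicate 1, but was 29.0 and 35.9 CPM in the other two. All 10 endothelial markers had log2 fold changes below 0 with propranolol, with medians of −0.41 in KO and −0.61 in WT cells and none called, and their part in these values was not tested.

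edgeR called 0 of 10 genes in KO+P vs KO cells and 0 in WT+P vs WT cells, and DESeq2 called none in either without the block, where it called 1.11% and 0.802% of all genes, and Bcl2 in KO cells with it, where it called 6.29%. At an unadjusted p under 0.05 there were 2 in KO cells without the block, beside 12.6% of all genes, and 4 with it (Pmaip1, Bcl2, Fas and Tnfrsf10b), beside 25%. In WT cells Tnfrsf10b was under it in both models, beside 9.87% and 13.4% of all genes. The background of calls was 0.00674% of all genes in each, and 0.142% and 0.0809% with the block. Bcl2 and Fas did not overlap in KO cells, where 18.7% of all genes did not, and Tnfrsf10b did not in WT cells, where 21.2% did not. No interaction of propranolol or rapamycin with the genotype was called for any of the 10 genes by edgeR or DESeq2. Without the block no unadjusted p was under 0.05, beside 0.721% of all genes for propranolol and 0.762% for rapamycin. With the block those of Bcl2l11 and Pmaip1 were under it for propranolol and those of Pmaip1 and Tnfrsf10b for rapamycin. That was beside 2.84% and 1.93% of all genes, all 4 with an adjusted p of 1.00 in edgeR. Without WT replicate 1 Pmaip1 for propranolol and Tnfrsf10b for rapamycin were no longer under it. edgeR called 0% of all genes for either interaction with and without the block, and DESeq2 without it called 0% for propranolol and 0.00674% for rapamycin.

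The cultures differed from each other at least as much as the treatments did for 3 of the genes. The replicate number accounted for 83.1% of the sum of squares of log2 CPM of Pmaip1 and the group for 12.6%. For Bax these shares were 64.7 and 24.0%, and for Bcl2l11 they were 52.0 and 45.8%. By contrast the group held 75.7% for Tnfrsf10b, 73.6% for Bbc3, 66.7% for Bak1 and 65.7% for Bcl2l1. Mcl1, which encodes a short-lived survival protein, ranged only 1.27-fold over all libraries and had 43.6% in neither.

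Pmaip1 and Bcl2l11 lay in opposite order across the cultures. Pmaip1 stood at 23.1, 116 and 51.7 CPM in WT and 28.7, 95.4 and 47.9 CPM in KO replicates 1, 2 and 3, so that number 2 was highest and number 1 lowest, and the same order held in every group. Bcl2l11 was highest in number 1 and lowest in number 2 in every group. After group means were removed, their log2 levels correlated at −0.96 over the 16 libraries, and Bcl2l11 correlated with Bax at 0.90, with Tnfrsf10b at 0.84 and with Bbc3 at 0.81. Before that step Bcl2l11 and Bbc3 correlated at −0.07. These coefficients describe 3 sets of libraries that share a replicate number, not 16 independent points. The summed fibroblast markers had medians of 3.87, 15.5 and 39.8 TPM in numbers 1, 2 and 3, and the astrocyte markers 1.83, 3.69 and 1.84 TPM. By these medians only the astrocyte list had the order of Pmaip1, with numbers 1 and 3 nearly equal. That order held in WT and KO+P cells. It did not hold in KO cells, at 4.95, 3.55 and 1.95 TPM in replicates 1, 2 and 3, or in KO+R cells, at 2.25, 3.83 and 0.79 TPM. Most of the astrocyte sum was Aldh1l1. The part of these differences in either gene was not tested.

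**Figure D4:**
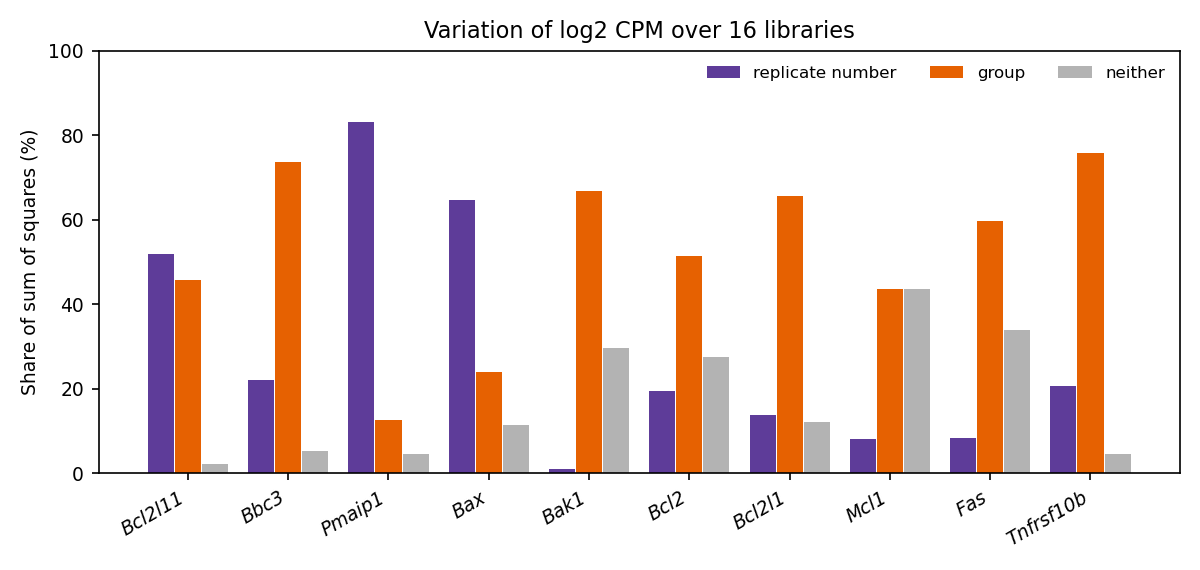
Share of the sum of squares of log2 CPM over 16 libraries that goes with the replicate number, with the group and with neither, for each of the 10 genes. Each share is fitted beside the other factor, so the 3 bars need not sum to 100%. Pmaip1, Bax and Bcl2l11 have their tallest bar at the replicate number.

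The promoters of the 2 genes that changed with rapamycin under the block are shown, as the 250 bases before the start of the most abundant transcript in GRCm39, 5′ to 3′. Capitals mark a FOXO core (GTAAACA), GC boxes (GGGCGG) and a p53 half-site, each searched on both strands.
Bcl2l11, chr2:127967708-127967957, plus strand: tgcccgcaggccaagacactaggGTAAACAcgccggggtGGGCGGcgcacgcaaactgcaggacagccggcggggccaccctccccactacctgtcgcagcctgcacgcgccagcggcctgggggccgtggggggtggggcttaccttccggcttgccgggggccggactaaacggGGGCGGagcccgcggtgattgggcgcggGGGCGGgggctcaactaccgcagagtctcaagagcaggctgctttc
Bbc3, chr7:16042421-16042670, plus strand: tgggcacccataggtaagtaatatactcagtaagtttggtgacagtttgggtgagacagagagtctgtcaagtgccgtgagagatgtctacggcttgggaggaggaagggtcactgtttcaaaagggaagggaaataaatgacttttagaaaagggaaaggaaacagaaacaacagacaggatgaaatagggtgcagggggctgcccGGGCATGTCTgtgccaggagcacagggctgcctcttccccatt
The Bcl2l11 window held 1 FOXO core, which 2.72% of 21770 promoters of the same length held, and 3 GC boxes, which 36.3% held at least once. The Bbc3 window held 1 p53 half-site (6.69% of promoters) and no GC box, and its GC content was 49.6% against 72% for Bcl2l11. Unlike that of Bcl2l11, the Bbc3 window lies within the annotated span of its gene, which starts at chr7:16042318. The promoter shares are of canonical transcripts, not of the most abundant ones. Of the other genes, Bak1 also held a FOXO core and Bax and Pmaip1 a p53 half-site. Such matches are a description of letters and no binding was measured here.

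Other genes of the same pathways came from 9 lists of 88 genes, of which 77 had enough counts to be tested. In the contrasts of 2 groups edgeR called none of them without the block. For any difference among the 6 groups 7 passed, with the background of 7.68% given above. They were Tnfrsf22 (adjusted p = 0.00670), Eda2r (0.0121) and Tnfrsf23 (0.0198), which encode receptors of the TNF family, the caspase gene Casp2 (0.0486), the p53 targets Gdf15 (0.0340) and Sesn2 (0.0418), and Ddit3 (0.0124), which encodes the stress factor CHOP. Ddit3 had log2 fold changes of 2.28 in KO and 2.16 in WT cells with propranolol, from means of 22.0 and 24.7 CPM to 106 and 111 CPM, and of −0.45 and −0.48 with rapamycin. The propranolol means rested on replicate 1, at 202 CPM in KO+P and 186 CPM in WT+P cells, the libraries with the lowest endothelial marker sums. Without it KO+P cells had a mean of 58.8 CPM and the remaining WT+P library 35.2 CPM. Gdf15 had 0.91 in KO vs WT and 1.17 in KO+P vs KO cells, and the decoy receptor genes Tnfrsf22 and Tnfrsf23 had 0.45 and 0.54 in KO vs WT cells.

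With the replicate block 4 of the 77 genes were called in KO+R vs KO cells (1 higher, 3 lower) and 4 in WT+R vs WT cells (2 higher, 2 lower), or 5.19% in each beside the 4.98% and 4.56% of all genes. The following were named after their values were seen. Birc3, an inhibitor of apoptosis protein, was higher with rapamycin in KO (log2 fold change under the block 0.85, adjusted p = 0.0317) and in WT cells (1.17, adjusted p = 0.0144), and Birc2 was higher in WT cells (0.60, adjusted p = 0.0450). Ripk3, a kinase of necroptosis, was lower in both (−1.27 and −0.82, adjusted p of 0.00118 and 0.0231). Xaf1, which antagonises XIAP, was also lower in both (−0.69 and −0.92), and Naip2 in KO cells (−1.05).

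Lists without a call in the model without the block are given by their 2 most abundant genes. Bad and Bid, the other BH3-only genes, had log2 fold changes of −0.14 and 0.17 in KO+R vs KO cells, and Vdac2 and Bok, from the effector list, 0.05 and −0.24. The survival genes Bcl2l2 and Bcl2l12 had 0.17 and −0.07, the receptor complex genes Cflar and Casp8 0.17 and 0.21, and the inhibitors of apoptosis list's Birc6 −0.18, beside Xaf1 given above. Of the 5 ligand genes listed, Tnfsf12 (TWEAK) had 290 to 1223 counts per library and Tnfsf10, which encodes TRAIL, the ligand of the Tnfrsf10b product, had 2 to 221. The other ligand genes had at most 2 (Fasl), 4 (Tnf) and 7 counts (Tnfsf15). Hrk, Bcl2a1a, Bcl2a1b, Bcl2a1d and Bcl2l10 had at most 3 counts.

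The 3 genes with the smallest adjusted p over the 6 groups without the block were compared with the tested genes of at least 1 CPM on average. The likeness of their pattern was measured by the correlation of log2 CPM over the 16 libraries. Bbc3 was most like Rela (0.94), Tor2a (0.94) and Frat2 (0.93). Tnfrsf10b was most like Sesn2 (0.93), Por (0.92) and Slc35c1 (0.92), and Bcl2l1 was most like Kazn (0.91), Trim8 (0.89) and Atosa (0.89). Rela, a subunit of NF-kappaB, had log2 fold changes of 0.49 in KO+R vs KO and 0.42 in WT+R vs WT cells, neither called by edgeR.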

How the data were processed

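For each library the authors deposited an expected count and a TPM value per transcript in the format of Salmon (version 1.5.2 in the submitters' notes, with the genome build GRCm39). The deposited expected counts were estimated by the authors from poly(A), unstranded, paired-end reads and not normalized between libraries, and the deposited TPM values are scaled by the authors to transcript length. The paper describes STAR, HTSeq and DESeq2 instead. Counts were summed per gene with GENCODE vM39 (99.12% of transcripts matched) and rounded. Of 27228 genes with a count, 14838 passed edgeR's filterByExpr, among them all 10 described. No per-sample column was unused.

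The test was edgeR 4.0.16 (quasi-likelihood, TMM) with 6 group means over all 16 libraries. A call needed a Benjamini-Hochberg adjusted p under 0.05 and a fold change above 1.5 (the adjusted p alone for interactions and for any difference). CPM is normalised by TMM. edgeR estimated a biological coefficient of variation of 32.3% (19.0% with the block). Same-numbered libraries of compared groups correlated in their deviations at 0.19 to 0.69. Over all groups the median was 0.52 for same-numbered pairs (0.03 to 0.69) and −0.23 for differently numbered pairs (−0.69 to 0.40). Removing the means of groups of 2 or 3 libraries by itself lowers the latter, so the pairing used in the block is an assumption. The labels do not state this pairing. Alternatives were DESeq2 1.42.0, other scaling, filters, an effective length offset, a fit of only the libraries compared, the block and each library left out. Steps were tested on simulated data. Genes named were all 10, list genes called in any comparison or else the 2 most abundant of a list, the 3 most alike genes of 3 members, and Pdcd10. The members and lists were chosen with earlier results of these data known.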

Additional observations from a re-analysis of the deposited data

Results flagged for a closer look

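For 3 of the 10 genes, every culture of one kind moved one way and every culture of the other kind the opposite way. Over the 4 pairs of comparisons examined, 14.8% of all genes tested did so in at least 1 pair. Pmaip1 was lower with rapamycin in 3 of 3 KO and higher in 2 of 2 WT cultures, with an interaction of −1.14 on the log2 scale (unadjusted p = 0.373, and 0.0154 with the replicate block). Tnfrsf10b was higher in KO than WT cells in 3 of 3 untreated and lower in 2 of 2 rapamycin-treated cultures, with an interaction of −0.29 (unadjusted p = 0.211, and 0.0323 with the block). Without WT replicate 1, whose Pdcd10 level goes against its label, the blocked p of Tnfrsf10b was 0.127 and its log2 fold change in KO vs WT cells 0.02, and the blocked p of Pmaip1 was 0.0372. Mcl1 was lower in KO cells in 3 of 3 untreated and higher in 2 of 2 rapamycin-treated cultures, with an interaction of 0.20 (unadjusted p = 0.196, and 0.221 with the block). None of these interactions passed edgeR's adjusted p in either model, where every adjusted p was 1.00.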

How the results depend on the processing

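Of 2390 recomputed values of single genes, 2342 kept their side of the threshold, 34 newly passed, 14 no longer passed and none reversed, while 87 values that were not called changed sign. In KO+R vs KO cells 0 genes were called without the block (1.51% of all genes), and 1 (Bbc3) with DESeq2 (3.19%) or without a filter on low counts (0.878%). There 2 (Bcl2l11, Bbc3) were called with the replicate block (4.98%), and with the block when WT replicate 1 was left out (4.79%). The same 2 were called with DESeq2 and the block (7.57%), a setting chosen after seeing the data. Leaving out 1 library each gave 0 to 1. In WT+R vs WT cells the block gave 2 (4.56% of all genes), 1 (Bcl2l11) without WT replicate 1 (2.75%), and 2 in DESeq2 with the block (6.59%). DESeq2 with the block also called 1 gene (Bcl2) in KO+P vs KO (6.29% of all genes) and 2 (Bcl2l11, Pmaip1) in KO+R vs WT+R cells (2.05%). In WT+P vs WT cells leaving out 1 library gave 0 to 1 (Bcl2, without WT+P replicate 2, which leaves 1 WT+P library assumed to vary like the others). For any difference among the 6 groups 1 gene passed, against 3 in DESeq2 (20.5% of all genes). The replicate block gave 5 (23.2%), the block without WT replicate 1 gave 3 (18.8%), and DESeq2 with the block gave 7 (38.7%). With the effective length offset 0 passed (5.89%). Of the 16 omissions of 1 library 13 gave 0. Those of WT replicate 1 and KO replicate 1 were among them, where 878 and 834 of the 14838 genes tested passed. RLE size factors changed no call. The cause of these changes was not tested. Over all genes, calls in KO+R vs KO cells went from 224 to 739 with the block and 473 in DESeq2, with 51 to 249 when 1 library was left out (51 without KO replicate 3), and in WT+R vs WT cells from 207 to 677 and 542, with 25 to 266 (25 without WT+R replicate 1). In KO vs WT cells they went from 1 to 27 with the block, 64 in DESeq2 and 396 in DESeq2 with the block, in KO+P vs KO cells from 1 to 21, 164 and 933, with 1 to 332 when 1 library was left out (332 without KO+P replicate 3), in WT+P vs WT cells from 1 to 12, 119 and 157, with 0 to 554 (554 without WT+P replicate 2), and for any difference from 1139 to 3439, 3041 and 5742. DESeq2 with the block called 1123 in KO+R vs KO and 978 in WT+R vs WT cells. A fit of only the libraries compared called 274 in KO+R vs KO and 9 in WT+R vs WT cells. For any difference, leaving 1 library out of a group of 3 gave 653 (without KO+P replicate 2) to 1667 calls (without KO+P replicate 3). Depth limits Fas, with 3 to 112 counts.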
